A study of Homo sapiens with 8 samples.

Results

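The genes described here make the folding and degradation machinery of the endoplasmic reticulum (ER). They are 34 genes of 20165 gene regions counted, chosen by symbol for their roles, with earlier results of these data known. They comprise 9 chaperones and their partners (HSPA5, HSP90B1, HYOU1, SDF2L1, MANF, DNAJB9, DNAJB11, DNAJC3 and DNAJC10), 2 lectin chaperones (CALR and CANX), and 10 enzymes of oxidative folding and proline isomerization (P4HB, PDIA3, PDIA4, PDIA6, TXNDC5, ERO1A, ERO1B, CRELD2, PPIB and FKBP2). The others are 3 sensors and transcription factors of the unfolded protein response (ATF6, ERN1 and XBP1) and 10 genes of ER-associated degradation (SEL1L, SYVN1, HERPUD1, EDEM1, EDEM2, EDEM3, DERL1, DERL2, DERL3 and OS9). All 34 had a region, and all 34 had enough counts to be tested in both comparisons. Their level was read from ribosome profiling (Ribo-seq), which sequences the stretches of mRNA that ribosomes shield from RNase. The cells were OVCAR3, a human ovarian cancer line that is widely used. For the siRNA experiment, they were transfected at 30 nM either with a control (siControl) or with siRNA that targets OARD1, the gene of TARG1, a hydrolase that removes ADP-ribose from proteins (siTARG1). In the RACK1 experiment, stably transduced and drug-selected cells were given 1 µg/ml doxycycline, which knocked down their own RACK1, a protein of the small ribosomal subunit, and brought on HA-tagged RACK1, either wild type (RACK1-WT) or mutated at its sites of mono-ADP-ribosylation (RACK1-Mut). Cells were harvested after 48 h, with 2 libraries in each of the 4 groups.

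Secreted and membrane proteins are folded in the ER. HSPA5 (BiP) holds unfolded chains with the help of J-domain proteins such as DNAJB9 and DNAJC3, calnexin and calreticulin hold chains that carry sugars, and protein disulfide isomerases form the disulfide bonds with oxidizing power from ERO1. Chains that fail to fold are trimmed by EDEM mannosidases, read by lectins such as OS9 and sent out of the ER for degradation through the SYVN1 (HRD1) and SEL1L complex. When unfolded chains build up, the sensors ERN1 (IRE1), PERK and ATF6 start the unfolded protein response, and ATF6 and spliced XBP1 switch on many of these genes through ER stress response elements in their promoters.

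These elements are shown because they are the DNA through which that response is known to reach the genes. The RefSeq promoter table (GRCh38.p14, from 250 bases before to 50 after the start of transcription) held 31 of the 34 genes. PDIA3, DERL1 and DERL3 had no entry. The element ERSE, which is CCAAT and CCACG with 9 bases of any kind between them, was searched on both strands and was found in 8 of the 31 genes, against 25 of the 27305 genes of the table (0.0916%). The element ERSE-II, which is ATTGG and CCACG with 1 base of any kind between them and was searched the same way, was found in 3 of the 31, against 19 genes of the table (0.0696%), and no gene of the 34 had both. A match is only a match of letters. The counts over the table include those of the 34 genes. Many of the 34 were already known to be reached by the response through these elements, so the shares are not a test. The sites are printed in the orientation of the element, with the fixed letters in capitals, and those of CALR, CRELD2, ERO1B, HYOU1 and SDF2L1 and the HSP90B1 site nearer to the start lie reversed relative to the gene.
HSPA5, chr9:125241391-125241409: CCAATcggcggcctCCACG
HSP90B1, chr12:103930216-103930234: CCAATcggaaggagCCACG
HSP90B1, chr12:103930321-103930339: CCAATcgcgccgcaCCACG
CALR, chr19:12938384-12938402: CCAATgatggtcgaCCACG
CANX, chr5:179698778-179698796: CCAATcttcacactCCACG
PDIA6, chr2:10812853-10812871: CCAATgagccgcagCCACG
ERO1B, chr1:236282183-236282201: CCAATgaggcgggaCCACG
CRELD2, chr22:49918554-49918572: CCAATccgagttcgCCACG
XBP1, chr22:28800603-28800621: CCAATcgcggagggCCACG
HERPUD1, chr16:56932025-56932035: ATTGGgCCACG
HYOU1, chr11:119057274-119057284: ATTGGaCCACG
HYOU1, chr11:119057380-119057390: ATTGGaCCACG
SDF2L1, chr22:21642114-21642124: ATTGGtCCACG

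The 250 bases before the start of HSPA5 (GRCh38.p14 chr9:125241344-125241593, minus strand) are printed to show an element in its setting, with its fixed letters in capitals. The element begins 66 bases before the start.
HSPA5 promoter: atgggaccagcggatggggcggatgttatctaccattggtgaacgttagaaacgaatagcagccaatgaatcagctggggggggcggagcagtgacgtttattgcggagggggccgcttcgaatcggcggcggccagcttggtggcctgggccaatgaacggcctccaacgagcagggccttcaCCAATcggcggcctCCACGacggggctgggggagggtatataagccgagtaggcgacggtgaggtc

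The libraries held 3100947 to 6604190 footprints on coding sequences. The methods describe independent biological samples. With 2 libraries a group, the p-values rest on the spread between these samples, which DESeq2 fits with information from all genes. They do not measure the spread of the libraries of a single gene alone. An exact permutation test could not fall below 0.33. OARD1, the target of the siRNA, had 138 and 58 coding footprints in siControl and 7 and 6 in siTARG1 cells. RACK1 had fewer footprints in RACK1-Mut than in RACK1-WT cells (log2 fold change -0.42, adjusted p 1.34e-08), a call that was lost without RACK1-Mut replicate 1 (adjusted p 0.102) or replicate 2 (adjusted p 0.265). Markers of ovarian carcinoma epithelium (EPCAM, KRT7, KRT8, KRT18, PAX8, MUC16 and MSLN) were all present, although in siTARG1 cells KRT18 (log2 fold change -1.24) and KRT8 (-1.03) fell, KRT7 (0.47) rose and the other 4 were not called. Over the 4 markers of blood and endothelial cells that had a region, the summed raw count was 7 and 12 in siControl, 2 and 4 in siTARG1, 9 and 18 in RACK1-WT and 6 and 10 in RACK1-Mut, with CD3E at 0 throughout. The part of these shifts in the results below was not tested. Lysates of whole cultures were profiled, so a change in some of the cells cannot be told apart from a smaller change in all of them, and a change in mRNA cannot be told apart from a change in translation. The sample titles do not name the TARG1 siRNA used. An effect of losing TARG1 cannot be told apart from another effect of that siRNA.

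The footprint levels of the 34 genes differed widely. As coding footprints per kilobase of coding sequence and per 1000000 coding footprints, averaged over the 8 libraries, they ran from PDIA3, a disulfide isomerase that works with the lectin chaperones (1029, rank 174 among the regions with a coding sequence), to ERN1 (2.26, rank 10837). CALR (1006), PPIB, a proline isomerase (979.5), and HSPA5 (960.5) were close behind PDIA3 in that mean, but their order differed between groups. In siTARG1 the levels were 1173 and 1165 for PDIA3, 1009 and 1059 for HSPA5, 871.7 and 900.1 for PPIB and 787.8 and 835.2 for CALR, with no overlap. In RACK1-WT, CALR was highest (1261 and 1273), followed by PPIB (1094 and 1128), and PDIA3 (1061 and 977.8) and HSPA5 (1047 and 995.1) overlapped. CANX (712.2), HSP90B1, the ER member of the HSP90 family (669.7), P4HB (537.2), PDIA6 (465.9) and PDIA4 (412.2) followed. Of all footprints on the 34 genes, HSPA5 took 14.9% on average, and HSPA5, HSP90B1 and PDIA3 together took 39.99%. As raw coding footprints, CANX had more than CALR in the 4 libraries of the siRNA experiment and fewer in the 4 of the RACK1 experiment. Per kilobase, CANX was below CALR in siControl (594.3 and 625.6 against 716.0 and 763.8) and in the RACK1 experiment. In siTARG1 their levels overlapped (804.9 and 838.2 for CANX, 787.8 and 835.2 for CALR).

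**Figure D1:**
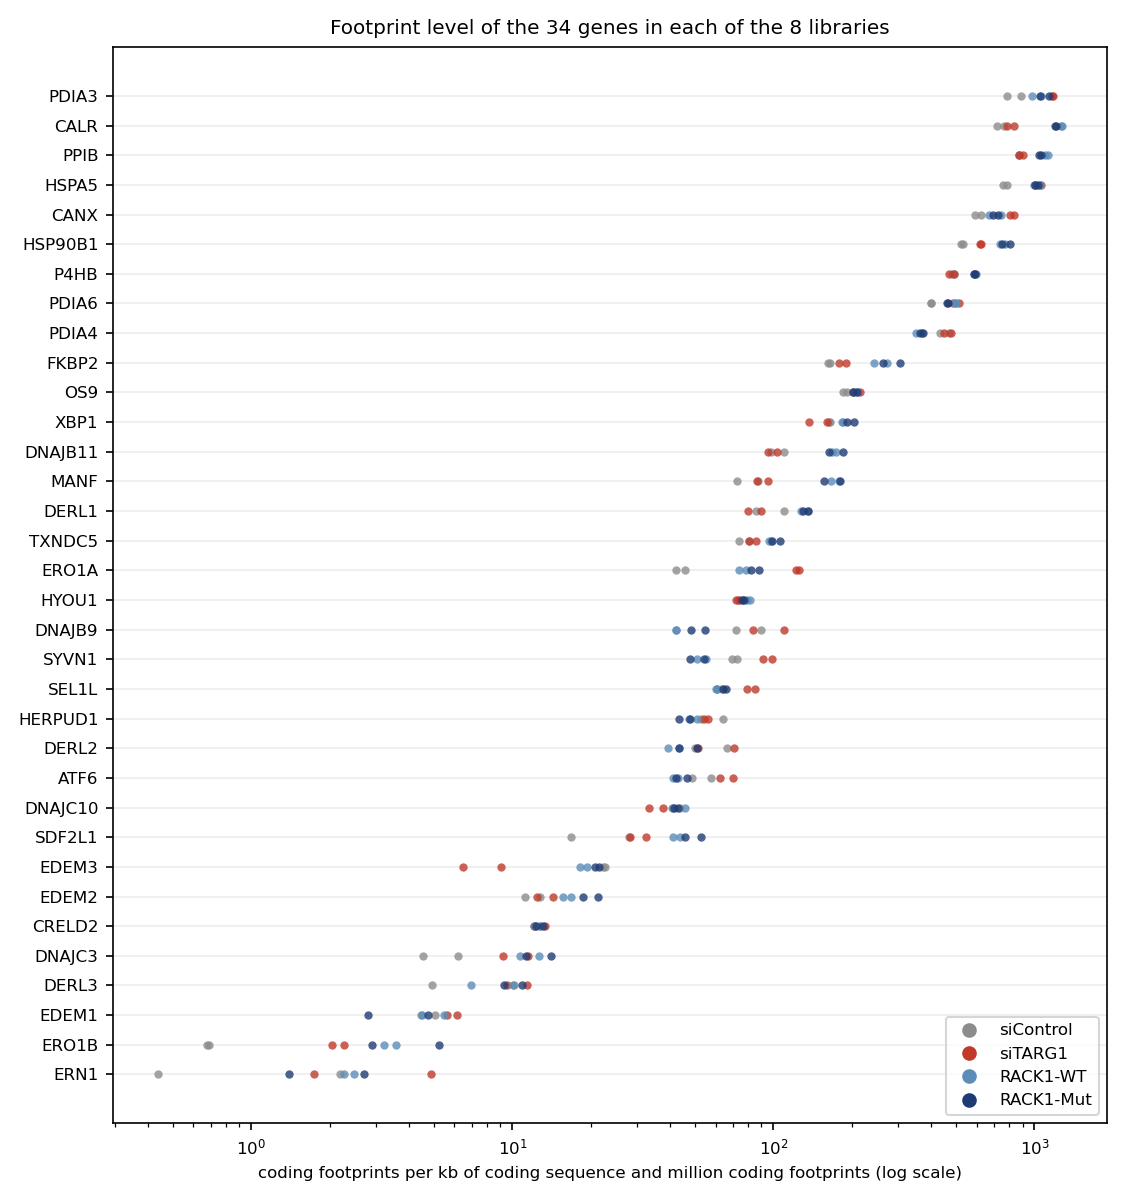
Footprint level of each of the 34 genes in the 8 libraries, as coding footprints per kilobase of coding sequence and per 1000000 coding footprints on a log scale, with one point per library coloured by group. Mean levels run from 2.26 (ERN1) to 1029 (PDIA3), and the red siTARG1 points of EDEM3 (6.47 and 9.01) and ERO1A (122 and 126) stand away from the other points of those genes.

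Abundant chaperones and isomerases lay at the top of that order, and ERN1, ERO1B, EDEM1 and DERL3 at the bottom. XBP1, a transcription factor of the response, was the highest of the 3 sensors and transcription factors (173), with ATF6 at 51.6. Among the degradation genes, OS9 (202) and DERL1 (112), a membrane protein of the export channel, were highest, and EDEM1 (4.85), an EDEM family member, was lowest. ERO1B, the paralog of ERO1A, was at 2.58, where ERO1A was at 82.2. The raw coding counts of ERO1B were 3 to 31 and those of ERN1 4 to 60 in a library, so their fold changes are poorly determined.

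In siTARG1 cells, 7 of the 34 genes changed against siControl cells: ERO1A, PDIA3, CANX, HSPA5, SYVN1 and PDIA6 rose, and EDEM3 fell. A change was called at an adjusted p under 0.05 in DESeq2, fitted to all genes, with p-values adjusted by the Benjamini-Hochberg method over 11121 of the 12056 genes tested, the other genes being given no adjusted p. In that comparison 16.4% of all genes were called, 7.18% higher and 9.19% lower, so 7 of 34 (20.6%) was near the share over all genes in the fit of all 4 libraries, and the 6 called higher were 17.6% of the 34. Fold changes of the 34 were above 0 for 23, with a median log2 fold change of 0.11, against 0.003 over all genes tested. That median was 0.039 without siControl replicate 1 and 0.161 without siTARG1 replicate 1, the lowest and highest with 1 library left out. In 21 of the 34 (61.8%) the normalized counts of the groups did not overlap, against 62.6% of all genes tested. Of the alternatives, edgeR moved the count most. Its quasi-likelihood test called 11 (32.4%, against 28.8% of all genes tested), adding HSP90B1, SEL1L and DNAJC3 (higher) and DNAJC10 (lower). With the replicate number as a block, DESeq2 called 5 (14.7%, against 9.33% of all genes tested). How near the share of the 34 lay to that of all genes thus depended on the fit. With any 1 of the 4 libraries left out, log2 fold changes were 0.314 to 0.396 for CANX and 0.317 to 0.395 for HSPA5. They were 0.321 to 0.5 for PDIA3, 1.353 to 1.475 for ERO1A and -1.861 to -1.375 for EDEM3. For PDIA6 they were 0.22 to 0.279 and for SYVN1 0.309 to 0.406. A call depends on footprint counts, and the 34 were not set beside genes of like count.

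**Figure D2:**
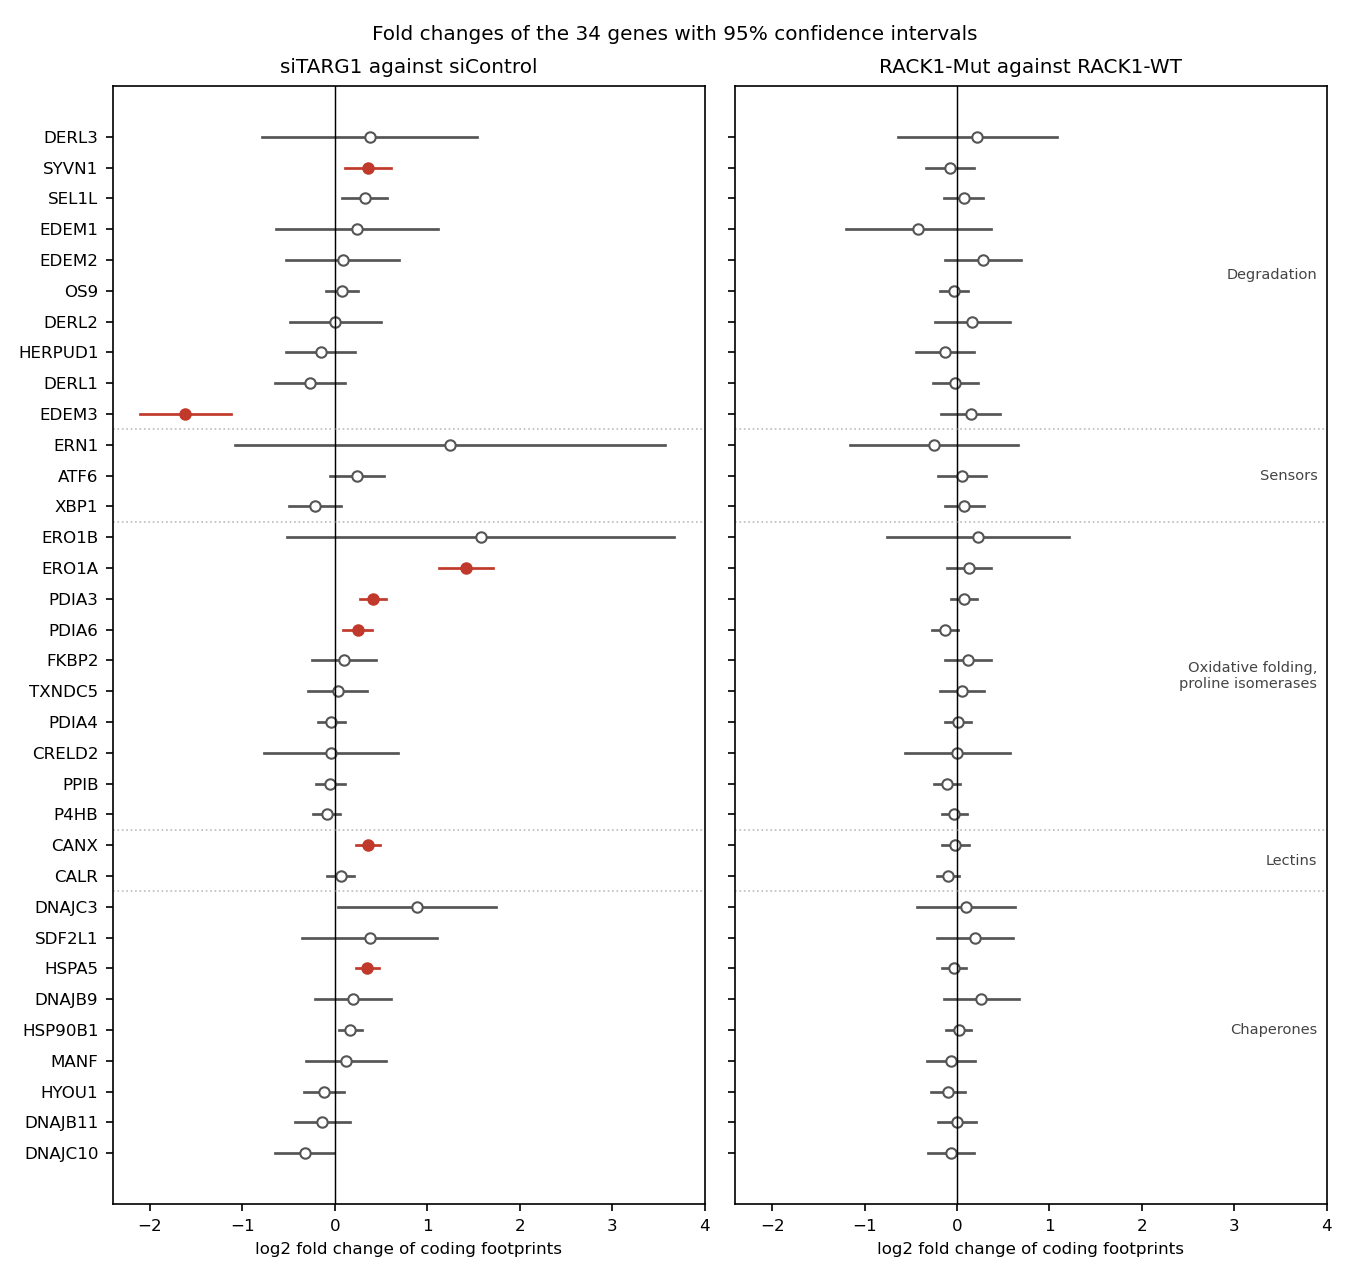
Log2 fold change of coding footprints (x axis) of the 34 genes, grouped by role, with bars for the 95% confidence interval of the DESeq2 fit on 2 libraries against 2, and filled red points for genes called at an adjusted p under 0.05. The 7 called genes are all in the siTARG1 comparison at left, from -1.62 (EDEM3) to 1.42 (ERO1A), and the RACK1 comparison at right has none.

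Among the chaperones, HSPA5 was the only gene of 9 called. HSPA5 (minus strand of chromosome 9, 127997132 to 128003661 on GRCh37) had 5510 and 5692 normalized counts, which are coding counts divided by the size factor of the library, in siControl and 6946 and 7358 in siTARG1. Both siTARG1 libraries lay above both siControl libraries. This was a log2 fold change of 0.35, with an SE of 0.0643 and an adjusted p of 1.29e-06, a rise to 128% of the control level. HSP90B1 had 4729 and 4663 normalized counts in siControl and 5253 and 5286 in siTARG1. Its groups did not overlap, but its log2 fold change of 0.17 (SE 0.0635) had an adjusted p of 0.0503 and was not called.

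The other 7 chaperones and partners were not called. DNAJC3, a J-domain protein that also inhibits PERK, was low, with 25.5 and 34.6 normalized counts in siControl and 60.8 and 49.5 in siTARG1. Its log2 fold change was 0.89, with a 95% interval from 0.04 to 1.75 and an adjusted p of 0.155. DNAJC10, a J-domain protein that reduces disulfide bonds of chains bound for degradation, had 385.8 and 360.0 normalized counts in siControl and 278.8 and 318.2 in siTARG1 (log2 fold change -0.33, adjusted p 0.164). HYOU1, which exchanges the nucleotide of HSPA5, had a log2 fold change of -0.12 (95% interval -0.33 to 0.10), and DNAJB11 one of -0.14. SDF2L1, MANF and DNAJB9 had overlapping groups and log2 fold changes of 0.38, 0.13 and 0.20.

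The lectin chaperones, which hold the same kinds of sugar-bearing chains, had different values. CANX, the membrane-bound calnexin (plus strand of chromosome 5, 179105629 to 179158642), had 3910 and 4114 normalized counts in siControl and 5015 and 5274 in siTARG1. Its groups were apart, and the log2 fold change of CANX was 0.36, with an SE of 0.0681 and an adjusted p of 3.85e-06. CALR, the soluble calreticulin, had 3321 and 3540 in siControl and 3460 and 3704 in siTARG1. The CALR groups overlapped, and the log2 fold change of 0.06 (95% interval -0.08 to 0.21) was not called. The difference between CANX and CALR was not tested.

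In oxidative folding, 3 of 10 genes were called, all higher. ERO1A, which oxidizes protein disulfide isomerases (minus strand of chromosome 14, 53106633 to 53162618), had 219.7 and 238.4 normalized counts in siControl and 600.1 and 625.2 in siTARG1. The siTARG1 values were 2.68-fold the siControl values on average, with a log2 fold change of 1.42, an SE of 0.149 and an adjusted p of 2.01e-19, the largest rise among the called genes of the 34. ERO1B had raw counts of 4 and 3 in siControl and 12 and 10 in siTARG1. DESeq2 gave it no adjusted p at this depth, and its log2 fold change of 1.58 had a 95% interval from -0.51 to 3.67.

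PDIA3 (plus strand of chromosome 15, 44038592 to 44065477) had 4404 and 4971 normalized counts in siControl and 6234 and 6256 in siTARG1. That is a log2 fold change of 0.42, with an SE of 0.0722 and an adjusted p of 3.1e-07. PDIA3 and HSP90B1 have processed pseudogenes, and reads could be placed at many matches, so their counts are uncertain to that extent. PDIA6, a disulfide isomerase that also acts on ER sensors (minus strand of chromosome 2, 10923517 to 10978103), had 1954 and 1948 in siControl and 2356 and 2269 in siTARG1. Its groups were apart, at a log2 fold change of 0.25, an SE of 0.0784 and an adjusted p of 0.0138, but the call was lost when any 1 of the 4 libraries was left out (adjusted p 0.182 to 0.42).

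The other disulfide isomerases did not pass the test. P4HB, the archetype of the family, had 2766 and 2721 normalized counts in siControl and 2515 and 2649 in siTARG1 (log2 fold change -0.09, 95% interval -0.24 to 0.06). PDIA4 was at -0.04 (95% interval -0.18 to 0.11). TXNDC5 was at 0.03, but its region joins the transcripts of BLOC1S5, EEF1E1 and their readthrough genes, and exon counts of that region gave -0.49 (adjusted p 0.00021). The proline isomerases PPIB (-0.05) and FKBP2 (0.10) and CRELD2, which has disulfide isomerase activity (-0.04), also had intervals that included 0.

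None of the 3 sensors and transcription factors was called in siTARG1 cells, and none had an unadjusted p under 0.05 in DESeq2, while edgeR called none either. ATF6, the sensor that becomes a transcription factor on cleavage, had 428.9 and 362.4 normalized counts in siControl and 438.7 and 500.4 in siTARG1 (log2 fold change 0.24, 95% interval -0.06 to 0.54). XBP1 had 475.5 and 478.0 in siControl and 440.3 and 380.1 in siTARG1 (log2 fold change -0.21, 95% interval -0.50 to 0.07), and its spliced and unspliced mRNAs were not counted apart. ERN1 had raw counts of 27 and 4 in siControl and 60 and 16 in siTARG1, a spread within groups that left an interval from -1.08 to 3.57.

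Of the 10 genes of degradation, SYVN1 rose and EDEM3 fell. EDEM3, which trims mannose from misfolded glycoproteins (minus strand of chromosome 1, 184659371 to 184724041), had 223.2 and 226.5 normalized counts in siControl and 61.6 and 86.6 in siTARG1. It fell to 32.6% of the control level, at a log2 fold change of -1.62, an SE of 0.249 and an adjusted p of 4.46e-09, and it was the only gene of the 34 called lower. Its family members EDEM1 (log2 fold change 0.24, 95% interval -0.63 to 1.12) and EDEM2 (0.08, 95% interval -0.53 to 0.70) were lower in count and not called.

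SYVN1, the ubiquitin ligase of the complex (minus strand of chromosome 11, 64889252 to 64902003), had 473.7 and 497.1 normalized counts in siControl and 640.1 and 600.5 in siTARG1. The log2 fold change of SYVN1 was 0.36, with an SE of 0.128 and an adjusted p of 0.0346, and the call was lost when any 1 library was left out (adjusted p 0.25 to 0.537). Its partner SEL1L had 562.5 and 536.4 in siControl and 660.1 and 717.5 in siTARG1, a log2 fold change of 0.32 with an adjusted p of 0.0503.

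HERPUD1, a membrane protein of the same complex and a widely used marker of ER stress, had 230.3 and 278.9 normalized counts in siControl and 223.1 and 233.9 in siTARG1 (log2 fold change -0.15, 95% interval -0.52 to 0.22). The groups overlapped. OS9 (0.08), DERL1 (-0.27), DERL2 (0.01) and DERL3 (0.38) were not called.

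**Figure D3:**
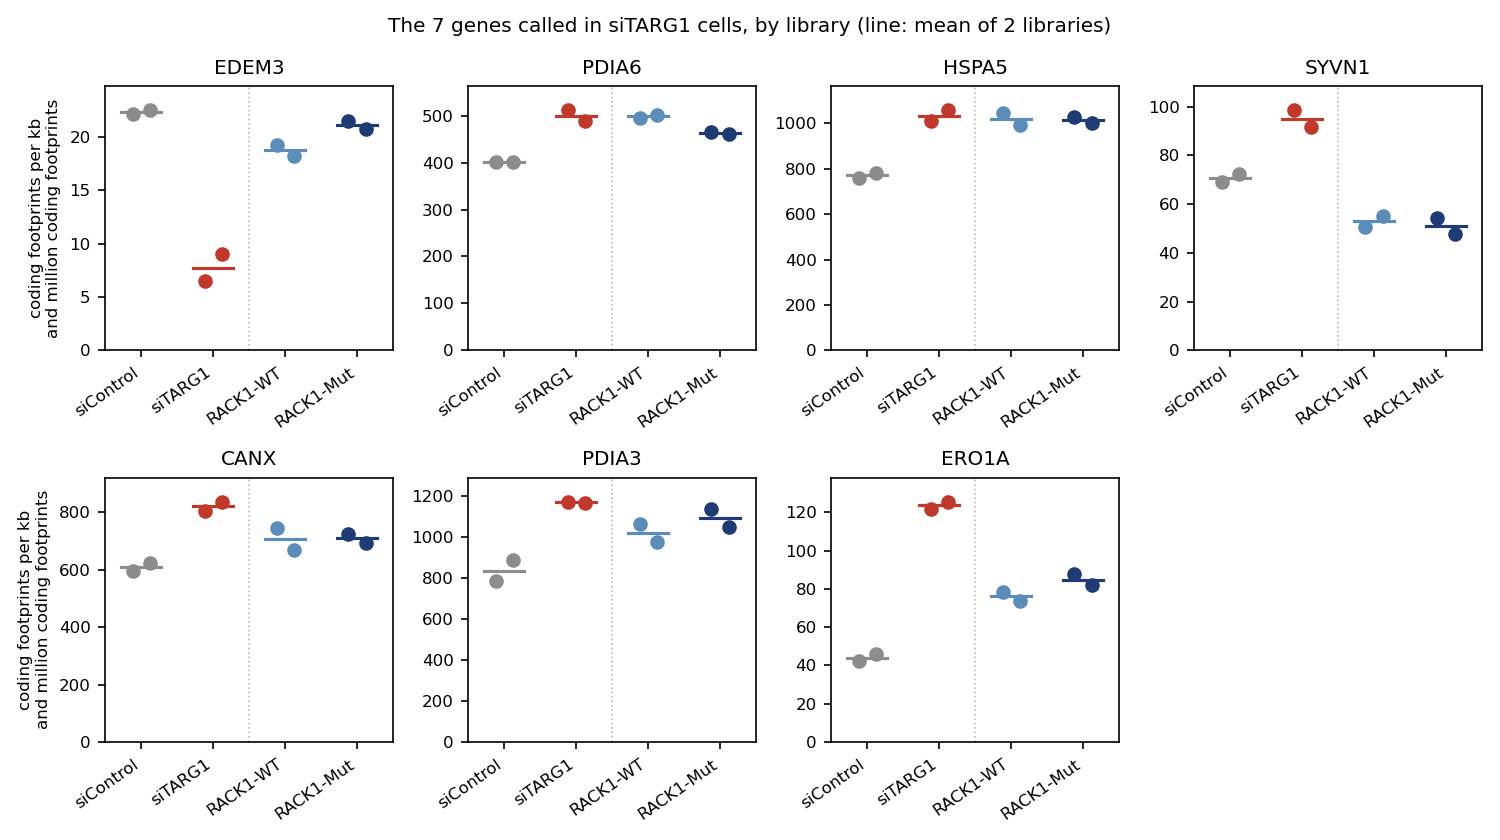
Coding footprints per kilobase of coding sequence and per 1000000 coding footprints (y axis, from 0) of the 7 genes called in siTARG1 cells, with one point per library and a line at the mean of the 2 libraries of a group. In each panel the 2 siTARG1 points lie apart from the 2 siControl points, below them for EDEM3 and above them for the other genes.

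As a share of all coding footprints, the 34 genes made up 1.055% and 1.096% in siControl and 1.28% and 1.292% in siTARG1 cells, a ratio of means of 1.20. HSPA5 alone went from 0.149% and 0.154% to 0.198% and 0.208%. Without HSPA5, CANX, PDIA3 and ERO1A, which were left out after their values were seen, the ratio for the other 30 genes was 1.09. By role, the ratio was 1.22 for the chaperones, 1.23 for the lectin chaperones, 1.19 for oxidative folding, 1.08 for the sensors and 1.09 for degradation. Shares of a library's total count and counts divided by size factors have different baselines, and as sums of normalized counts the same ratios were 1.14 for the 34 genes, 1.28 for HSPA5, 1.035 for the 30, 1.165 for the chaperones, 1.17 for the lectin chaperones, 1.13 for oxidative folding, 1.03 for the sensors and 1.04 for degradation. A few abundant genes set these sums, whereas the median fold change weighs all 34 alike.

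A list of 102 other ER genes showed where the 34 sit in the wider machinery. Of 99 tested in siTARG1 cells, 32 were called (32.3%, against 16.4% of all genes tested), 17 higher and 15 lower, with a median log2 fold change of 0.02. Leaving out 1 library reduced the count to 16 to 21 (16.2% to 21.2%, against 4.79% to 6.26% of all genes). By role, 12 of 25 other chaperones and oxidoreductases (8 higher) and 7 of 15 genes of N-glycosylation and glycan trimming (2 higher) were called. So were 5 of 21 genes of translocation and signal peptidase (2 higher) and 3 of 23 further degradation genes (1 higher). A mixed group of the PERK arm and related factors had 5 of 15 called (4 higher). ATF4, CEBPB, ATF6B and CREB3L2 were higher and NFE2L2 was lower. The group holds factors outside the PERK arm, such as ATF6B and CREB3L2. EIF2AK3, the gene of PERK, and DDIT3, PPP1R15A and TRIB3 were not called. The difference between these lists and the 34 was not tested. A call depends on footprint counts, and the other ER genes were not set beside genes of like count. The lists were also chosen with earlier results of these data known.

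The largest falls in that list are given beside that of EDEM3. ERLIN2, an ER membrane protein that takes part in degradation of the inositol trisphosphate receptor, had 482.5 and 500.7 normalized counts in siControl and 103.2 and 113.6 in siTARG1 (log2 fold change -2.19, adjusted p 4.33e-31). AGR2, a disulfide isomerase of mucin-making cells, had 298.8 and 366.0 in siControl and 59.9 and 88.8 in siTARG1 (-2.17). TMX1, a membrane-bound disulfide isomerase, had a log2 fold change of -1.99, and SPCS3, a subunit of signal peptidase, one of -1.59.

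On the rising side, RCN2, a calcium-binding protein of the ER (log2 fold change 1.07), ATF6B, the paralog of ATF6 (0.93), SSR1, a subunit of the translocon-associated complex (0.91), and HSPA13, an HSP70 family member (0.90), were the 4 largest with at least 100 normalized counts on average. These 8 genes stayed called when any 1 of the 4 libraries was left out. ATF6B was called higher while ATF6 was not, and the difference between the paralogs was not tested.

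**Figure D4:**
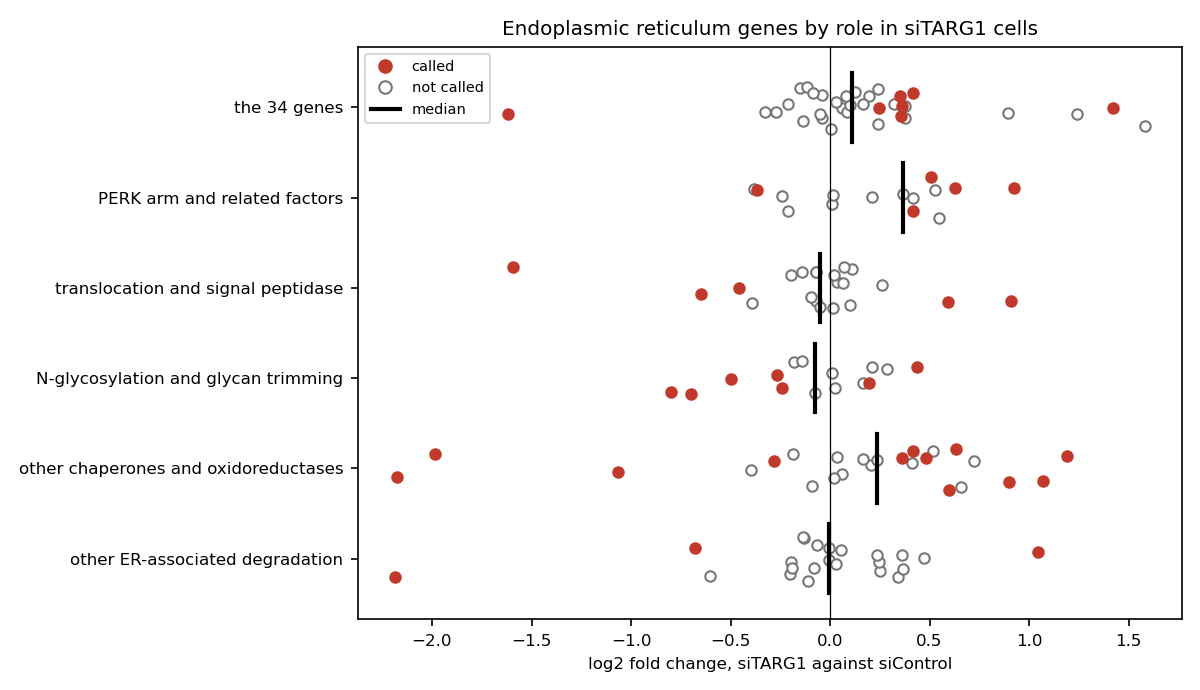
Log2 fold changes in siTARG1 against siControl cells (x axis) of the 34 genes (top row) and of 99 tested genes of 5 other ER lists, with filled red points for called genes and a black line for the median of each list. Called genes lie on both sides of 0 in each list, from -2.19 (ERLIN2) upward, and the median of the 34 is 0.11.

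In RACK1-Mut cells none of the 34 genes was called against RACK1-WT cells. Over all genes the comparison called 10 of 12520, or 0.0799%. None of the 34 had an unadjusted p under 0.05 in DESeq2, and edgeR called none and gave 1 an unadjusted p under 0.05. Log2 fold changes ran from -0.42 (EDEM1) to 0.28 (EDEM2), with a median of 0.006, against -0.002 over all genes tested. Groups were apart for 13 of the 34 (38.2%), against 37.6% of all genes.

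The intervals were narrow for the abundant genes. HSPA5 had 10500 and 9865 normalized counts in RACK1-WT and 10060 and 9885 in RACK1-Mut, overlapping groups with a log2 fold change of -0.03 (95% interval -0.16 to 0.10). HSP90B1 (0.02, -0.12 to 0.15), CANX (-0.02, -0.17 to 0.13) and PDIA3 (0.08, -0.07 to 0.22) had intervals of like width. ERO1A had 563.5 and 523.7 in RACK1-WT and 615.6 and 576.1 in RACK1-Mut, which did not overlap (log2 fold change 0.13, -0.10 to 0.37).

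The smallest unadjusted p of the 34 was that of PDIA6, with 3315 and 3329 normalized counts in RACK1-WT and 3047 and 3039 in RACK1-Mut. Its log2 fold change was -0.13 (SE 0.0719, unadjusted p 0.0782, adjusted p 1). EDEM3 had 267.4 and 250.0 in RACK1-WT and 291.1 and 282.1 in RACK1-Mut (0.15, -0.17 to 0.46). XBP1 (0.08, -0.13 to 0.29), ATF6 (0.05, -0.21 to 0.32) and HERPUD1 (-0.13, -0.44 to 0.19) also had intervals that included 0, and the interval of ERN1 ran from -1.15 to 0.65.

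The 34 genes took 1.36% and 1.325% of coding footprints in RACK1-WT and 1.369% and 1.328% in RACK1-Mut, a ratio of means of 1.005 (0.989 as sums of normalized counts). Of the 100 other ER genes tested, DESeq2 called none, with 1 at an unadjusted p under 0.05. The only one called by edgeR was ATF4, the transcription factor of the PERK arm, named after its values were seen. ATF4 had 519.4 and 532.7 normalized counts in RACK1-WT and 394.9 and 408.7 in RACK1-Mut (log2 fold change -0.39, DESeq2 unadjusted p 0.00268, adjusted p 1). In siTARG1 cells it had 514.4 and 500.4, against 379.7 and 333.8 in siControl, and was called higher (0.51, adjusted p 0.00493).

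The difference between the comparisons was tested in a DESeq2 fit of all 8 libraries, as the effect in RACK1-Mut minus the effect in siTARG1. It was called for 6 of the 34 genes (17.6%), against 12.3% of 12955 genes tested. The effects differed for ERO1A by -1.30 (SE 0.172, adjusted p 5.48e-12) and for EDEM3 by 1.76 (SE 0.262, adjusted p 1.28e-09). HSPA5 (-0.39), CANX (-0.38), PDIA6 (-0.38) and PDIA3 (-0.34) were the other called genes. The PDIA3 call was lost without siControl replicate 1, siTARG1 replicate 1, RACK1-WT replicate 1 or RACK1-Mut replicate 2. For SYVN1 the difference of -0.44 had an adjusted p of 0.0537 and was not called.

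Genes with a response element in the promoter were among both the called and the uncalled. Of the 11 with ERSE or ERSE-II, HSPA5, CANX and PDIA6 rose in siTARG1 cells, with a median log2 fold change of 0.17 over the 11. Of the other 23 genes, which include those without a promoter entry, 3 rose and 1 fell, with a median of 0.10. HSP90B1, which carries a pair of elements, was at 0.17, HYOU1, which carries a pair of ERSE-II elements, was at -0.12, and XBP1 and HERPUD1 were below 0. ERO1A, with the largest called rise, had neither element in its window. In RACK1-Mut cells the medians were -0.02 and 0.05. The difference between carriers and the others was not tested.

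The position of footprints along the mRNA is a readout that the choice of genes did not use. Over the 8 libraries, 0.881% of the footprints on the 34 genes lay in the 5′ UTR, against 4.10% over all regions, where small upstream reading frames can hold ribosomes. In single libraries the share of the 34 was 0.742% to 1.01%, and that of all regions 3.85% to 4.34%, so the ranges did not overlap. For 23 of the 34 genes the share was under 1%. The same count was not made over all genes, and a typical gene may differ from the 4.10%, which sums all regions. That sum includes regions without a coding sequence, whereas all 34 genes have one, so the sets are not alike in this. SDF2L1, XBP1, DERL2 and DERL3 had no footprint in the 5′ UTR in any library. Their 5′ UTRs as counted were short, at 76, 73, 56 and 25 bases.

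DNAJC10, EDEM2, EDEM3 and FKBP2 were above the share of all regions. DNAJC10 had 10.8% of its footprints in a 5′ UTR of 415 bases, with 9.52% to 12.2% in single libraries. EDEM3 had 5.67% and EDEM2 6.08%, with wide ranges over the libraries at 103 and 62 footprints in all. ERO1A had 3.61% and HSPA5 2.63%, where PDIA3 had 0.170% and CANX 0.397%. For HSPA5 the libraries ranged from 2.36% to 3.36%.

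**Figure D5:**
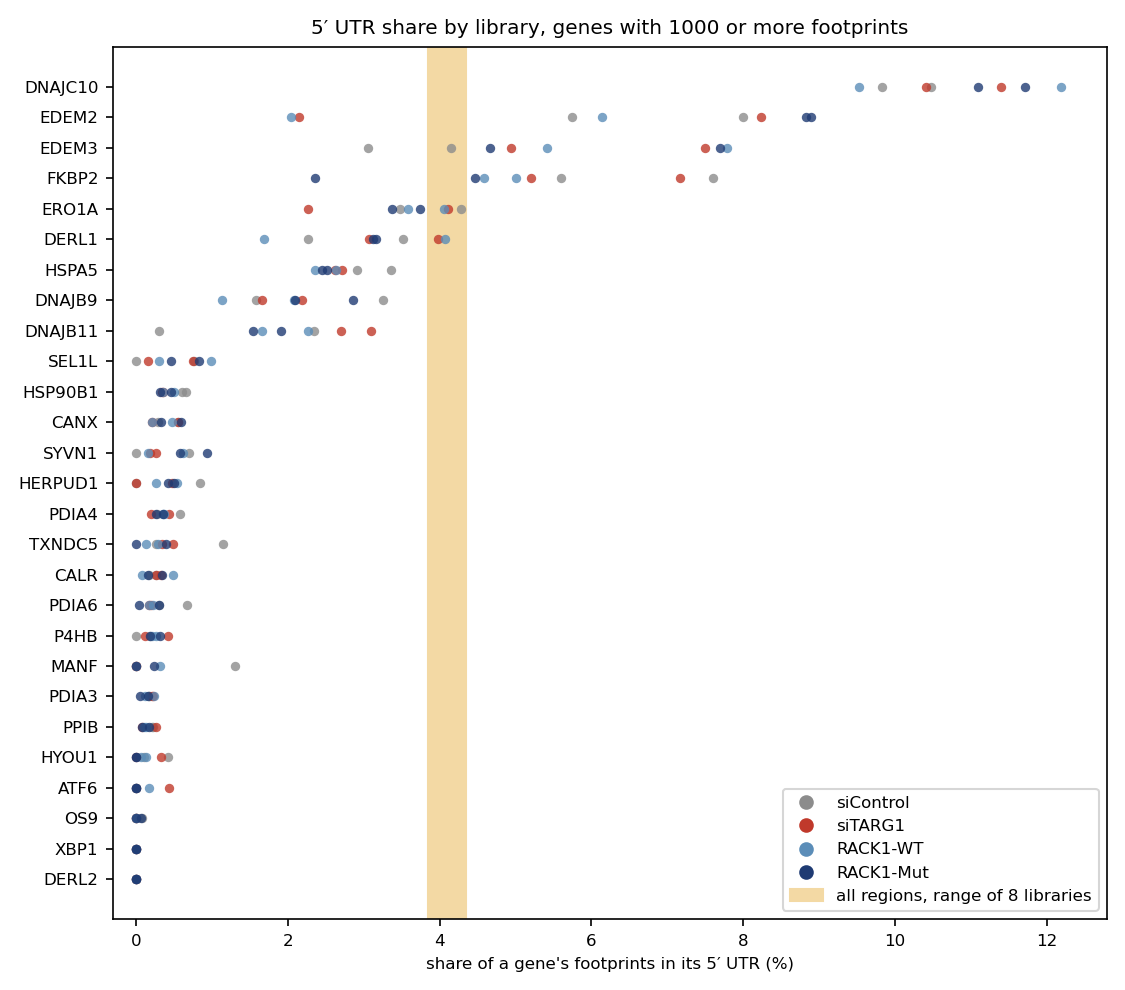
Share of the footprints of a gene that lie in its 5′ UTR (x axis, percent), with one point per library coloured by group, for the 27 genes of the 34 with at least 1000 footprints over the 8 libraries. The shaded band is the range over all regions summed (3.85% to 4.34%), and DNAJC10 (9.52% to 12.2%) is to its right in every library.

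Summed over the 34 genes, the 5′ UTR share was 0.887% ± 0.0496 (SD, n = 2) in siTARG1 and 0.980% ± 0.0455 in siControl, a difference of -0.093 percentage points with no overlap. That difference was -0.128 without siTARG1 replicate 1 and -0.058 without siTARG1 replicate 2, and it was -0.02 as the median over the genes. HSPA5 supplied 1825 of the 4027 footprints in the 5′ UTRs of the 34 genes over the 8 libraries. In RACK1-Mut the summed share was 0.854% ± 0.0643 and in RACK1-WT 0.852% ± 0.156, which overlapped. For EDEM3 the share was 4.15% and 3.06% in siControl and 7.5% and 4.94% in siTARG1, where few footprints were left. For ERO1A it was 3.48% and 4.29% in siControl and 4.12% and 2.27% in siTARG1, which overlapped. In the 3′ UTR the 34 genes had 0.214% of their footprints, against 1.06% over all regions.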

How the data were processed

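Ribo-seq libraries of OVCAR3 cells, 2 in each of 4 groups named by the sample titles, were analysed. The authors clipped linkers, removed rRNA reads (Bowtie 1.1.2) and aligned to transcripts only, with many hits allowed (TopHat2 2.1.1), versions per the submitters' processing notes. The deposited values are whole-number counts that the authors made with Plastid for merged regions (exons, 5′ UTR, coding sequence, 3′ UTR) on hg19 (GRCh37) with GENCODE 24, beside region lengths and RPKM values, which the authors scaled and which were not used here. Headers give an offset from the 5′ end and the methods one from the 3′ end. Which made the counts, and whether duplicate reads were collapsed, is not given in the sources used here. Intervals cover the fitted spread only.

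Symbols came from GENCODE 44 lifted to GRCh37 (19612 of 20165 regions, 97.3%). DESeq2 1.42.0 in R 4.3.3, the study's tool, was fitted to coding counts of the 4 libraries of a comparison, for genes with at least 10 counts summed, with a call at a Benjamini-Hochberg adjusted p under 0.05. Scripts were tested on simulated data. Alternatives were edgeR 4.0.16, TMM factors, other count filters, exon counts, a replicate block, all 8 libraries together and each library left out. The genes and lists were chosen with earlier results of these data known. Of the 108 other ER genes listed, 6 without an own region were left out. Called genes, and HSPA5, HSP90B1, XBP1, ATF6, ERN1 and HERPUD1, are given in full, with the 4 largest called rises and falls of the other ER list at a mean normalized count of at least 100. RNA-seq was not analysed here.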

Additional observations from a re-analysis of the deposited data

How the results depend on the processing

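In siTARG1 against siControl cells, 438 of the fold changes of named genes recomputed under an alternative kept their direction and their side of the threshold, 9 gained a call, 10 lost one (PDIA6 and SYVN1, under the replicate block and without any 1 library) and 13 changed sign. CANX, EDEM3, ERO1A, HSPA5 and PDIA3 kept their calls under all alternatives run. For the difference between the comparisons, the alternatives that kept all 8 libraries called 6 to 8 of the 34 genes. The replicate block called 6 (17.6%, against 6.78% of all genes tested) and edgeR 8 (23.5%, against 20.8%). The others called 17.6% to 20.6% of the 34, against 10.4% to 16.3% of all genes tested. In the RACK1 comparison 354 kept both, 29 changed sign and none of the 34 genes gained a call. With all 8 libraries together, DESeq2 gave an adjusted p to only 899 of 12955 genes in that comparison. Genes without one, DNAJB11 and CRELD2 among them, could not gain a call there and were counted as not called.

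Counts moved more. The genes called in siTARG1 cells were 3470 by edgeR, 1125 with the replicate block and 564 to 744 with 1 library left out. Of the 34 genes, 11 were called by edgeR (32.4%, against 28.8% of all genes tested). The median log2 fold change of the 34 was 0.039 to 0.161 with 1 library left out. The other ER genes called were 16 to 21 with 1 library left out. The cause of these moves was not tested. The edgeR and block fits used all 4 libraries, and the fits with 1 library left out had fewer. In the RACK1 comparison, edgeR called 30 genes and 1 other ER gene, the block 6 genes, and fits without 1 library 1 to 3, with medians of the 34 from -0.02 to 0.04. The 5′ UTR difference of siTARG1 was -0.02 percentage points as the median over the genes.

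Same-numbered replicates deviated together with a correlation of 0.031 over 8148 genes in the siRNA experiment and 0.083 over 9055 genes in the RACK1 experiment, so the number was not taken as a pairing. With the replicate block, 5 of the 34 genes were called in siTARG1 cells (14.7%, against 9.33% of all genes tested). None was called in RACK1-Mut cells, and 6 were called for the difference (17.6%, against 6.78%).

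TXNDC5 turned to -0.491 (siTARG1) and -0.043 (RACK1-Mut) with exon counts of its merged region. The other sign changes were of values that were not called. DERL2 was at -0.001 with the block in siTARG1. In RACK1-Mut, DNAJB11 was at -0.001 with 10 counts in every library or the block, -0.006 with exon counts and -0.003 with all 8 libraries, where CRELD2 was at -0.002. With 1 library left out, siTARG1 values spanned -0.015 to 0.258 for MANF, -0.02 to 0.189 for EDEM2, -0.243 to 0.212 for DERL2, -0.103 to 0.017 for PDIA4, -0.032 to 0.089 for TXNDC5, -0.037 to 1.015 for DERL3, -0.01 to 0.37 for DNAJB9 and -0.108 to 0.027 for CRELD2. RACK1-Mut values spanned -0.074 to 0.017 for HSPA5, -0.142 to 0.027 for DNAJC10, -0.1 to 0.069 for CANX, -0.025 to 0.044 for PDIA4, -0.044 to 0.051 for CRELD2, -0.029 to 0.065 for HSP90B1, -0.088 to 0.084 for DNAJB11 and -0.065 to 0.246 for DNAJC3. They spanned -0.05 to 0.02 for DERL1, -0.026 to 0.526 for DERL3, 0.0 to 0.101 for TXNDC5, -0.017 to 0.119 for ATF6, -0.799 to 0.162 for ERN1, -0.167 to 0.035 for MANF, -0.257 to 0.605 for ERO1B and -0.169 to 0.007 for SYVN1. Leaving out a library leaves a group of 1, which these fits assume varies like the others. Depth limits ERO1B, DERL3, ERN1 and EDEM1, which have the fewest counts of the 34 genes.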
